A study of Mus musculus with 2 samples.

Results

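Regulatory T cells were looked for among the tumour-infiltrating T cells of this study by 4 marker genes, and 148 of 18252 barcodes met the rule, 104 of 7688 in library 1 and 44 of 10564 in library 2. Each barcode stands for 1 droplet and each UMI (unique molecular identifier) for 1 captured RNA molecule. A barcode was chosen when it held at least 500 UMIs, at most 10% mitochondrial UMIs, under 0.4% of its UMIs from the melanoma genes Pmel, Mlana, Dct and Tyrp1, at most 1 UMI of C1qa, C1qb and C1qc together, at least 1 UMI of Cd3d, Cd3e or Cd3g, and no UMI of Cd8a or Cd8b1. It also needed at least 2 UMIs, in sum, of Foxp3, Ikzf2, Il2ra and Tnfrsf4. The comparison was made with the 1064 other Cd3-positive barcodes that passed the same filters, 655 in library 1 and 409 in library 2. Foxp3, the gene that defines the lineage, had a UMI in 46 of the 148, so the chosen barcodes are called Treg-marker barcodes here, after the rule.

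The cells were viable CD45+ cells sorted from tumours grown for 2 weeks from injected B16F10 cells, a mouse melanoma line. The wild-type group was LysM-cre x Rel+/+ and the knockout group LysM-cre x RelloxP/loxP, with loxP sites in the c-Rel gene, so both groups carried the Cre transgene. LysM-cre is active in myeloid cells, and T cells were not the target of the deletion. For each genotype 5 tumours were pooled and made into 1 library, and the sources used here do not state the age of the mice. The barcodes end in 1 or 2 and nothing in the files ties that number to a genotype, so values are given by library number and none is read as an effect of the genotype. Genotype, tumour pool and library cannot be told apart, and without replicate libraries no test was possible. All intervals are 95% intervals for counting error alone, and barcodes are not replicates.

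Regulatory T cells are CD4 T cells that restrain other immune cells. Foxp3 is their master transcription factor, Ikzf2 encodes Helios, a partner found in many of them, Il2ra encodes CD25, the high-affinity part of the interleukin 2 receptor, and Tnfrsf4 encodes OX40, a costimulatory receptor that activated conventional T cells also carry. In tumours they are known for high levels of the inhibitory receptor CTLA-4 and of other activation receptors. c-Rel, the NF-kB subunit encoded by Rel, is needed within T cells for Foxp3 to be fully switched on in the thymus.

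The marker UMIs that chose the barcodes were few in many of them and are given as a description. In library 1, 31 Treg-marker barcodes had 2 marker UMIs, 4 had 3, 31 had 4 to 6 and 38 had 7 or more, with a median of 5 and a highest value of 26. In library 2 the numbers were 18, 12, 10 and 4, with a median of 3 and a highest value of 12. Just outside the threshold lay 51 and 29 Cd8-negative, Cd3-positive barcodes with 1 marker UMI, and a further 244 and 125 had none. Tnfrsf4 had a UMI in 86 of 104 and 38 of 44 Treg-marker barcodes, Ikzf2 in 69 and 25, Foxp3 in 39 and 7, and Il2ra in 19 and 8. Tnfrsf4 was the sole marker in 23 and 14, and Ikzf2 in 12 and 5, while none was chosen on Foxp3 or Il2ra alone. Thus the barcodes were chosen on Tnfrsf4 and Ikzf2 far more often than on Foxp3, most of all in library 2.

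**Figure D1:**
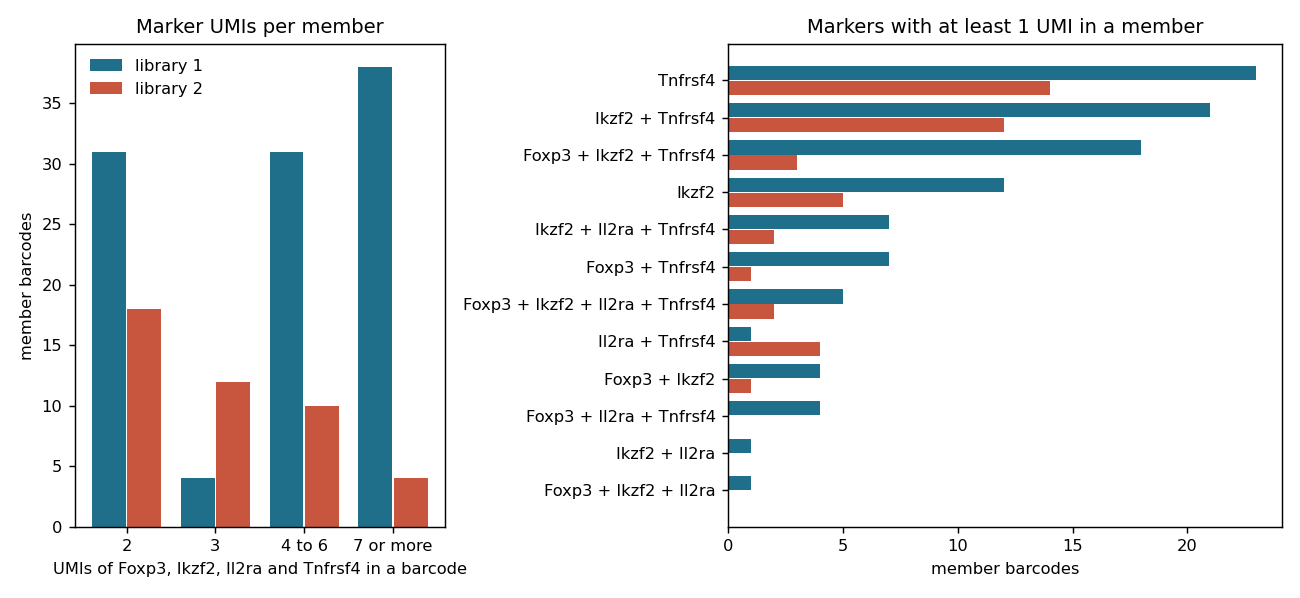
Left, number of Treg-marker barcodes (vertical axis) by the UMIs of Foxp3, Ikzf2, Il2ra and Tnfrsf4 they held (horizontal axis). Right, number of Treg-marker barcodes (horizontal axis) by the set of markers with at least 1 UMI (rows). Bars are library 1 and library 2: 31 and 18 barcodes stood at the threshold of 2 UMIs, and Tnfrsf4 was the sole marker in 23 and 14.

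Foxp3 (chromosome X, 7573644 to 7595245, GRCm38) stood at 311 UMIs per 1000000 UMIs of the class (CPM) in the Treg-marker barcodes of library 1 and at 117 CPM in those of library 2. In the other Cd3-positive barcodes it had 1 UMI in 655 barcodes (0.764 CPM) and 5 UMIs in 3 of 409 barcodes (5.93 CPM). Among 3658 and 6184 melanoma barcodes, which should lack the gene and held a median of 3171 and 10054 UMIs, Foxp3 had a UMI in 0.0547% and 0.0809%, against 37.5% (interval 28.2 to 47.5) and 15.9% (6.64 to 30.1) of Treg-marker barcodes at a median of 1249 and 910 UMIs. When each barcode was read as the share expected at 500 UMIs, these became 16.6% and 7.99%, against 0.0168% and 0.241% of the other Cd3-positive barcodes. The levels of Foxp3 were part of the choice and are not a result. Cd4, which the rule did not use, stood at 102 and 130 CPM in Treg-marker barcodes and at 15.3 and 3.56 CPM in the other Cd3-positive ones, which include those with Cd8. It had a UMI in 18 of 104 and 8 of 44 Treg-marker barcodes, so most of them showed no UMI of either coreceptor.

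Treg-marker barcodes made up 13.7% (11.3 to 16.4) of the 759 Cd3-positive barcodes of library 1 and 9.71% (7.15 to 12.8) of the 453 of library 2. Of those without Cd8, they were 26.1% (21.8 to 30.7) of 399 and 22.2% (16.6 to 28.7) of 198. The intervals of the libraries overlapped in both shares. At least 2 marker UMIs were also found in 113 of 360 and 74 of 255 Cd8-positive barcodes, which the rule leaves out, and Foxp3 had a UMI in 1 and 3 of all Cd8-positive barcodes. Those 113 and 74 barcodes were deeper, with medians of 4088 and 2708.5 UMIs.

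Treg-marker barcodes summed to 196282 UMIs in library 1 and 77161 in library 2, against 1309050 and 843503 in the other Cd3-positive barcodes. Single barcodes ran from 505 to 9366 UMIs and from 565 to 17736. The deepest of library 2 alone held 23.0% of the UMIs summed there. It passed on 2 UMIs of Ikzf2, had no UMI of Foxp3, Il2ra, Tnfrsf4, Ctla4 or Cd4, and held 42 UMIs of melanoma genes (0.237%) and 8 of other lineages. Ribosomal protein genes took 27.5% and 29.1% of UMIs in Treg-marker barcodes and 31.4% and 30.7% in the others. In each library 1 Treg-marker barcode had a sequence that was also a barcode of the other library, and neither was a shallow copy of a deeper one.

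Of 8 measured Treg identity genes outside the rule, 4 were at least 2 times higher in Treg-marker barcodes of both libraries. Ctla4 was among them, whose product CTLA-4 takes the costimulatory ligands CD80 and CD86 off antigen-presenting cells. Ctla4 (chromosome 1, 60887000 to 60915832) stood at 683 CPM against 92.4 CPM (library 1) and at 350 CPM against 127 CPM (library 2), which is 7.39 times (5.73 to 9.52) and 2.76 times (1.74 to 4.24) the level of the other Cd3-positive barcodes. Ctla4 had a UMI in 56 of 104 (53.8%) and 13 of 44 (29.5%, 16.8 to 45.2) Treg-marker barcodes. In the other Cd3-positive barcodes the shares were 13.7% and 19.6% (15.8 to 23.7), so in library 2 the intervals overlapped. Read at 500 UMIs, the shares were 28.3% and 18.2% against 5.05% and 7.75%. For Ctla4 the Treg-marker barcode with most held 7.46% and 22.2% of its UMIs. Without the deepest barcode of library 2 its ratio there was 3.58.

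Icos (chromosome 1, 60977927 to 61000320), a costimulatory receptor of the CD28 family encoded beside Ctla4, stood at 779 against 298 CPM and at 467 against 224 CPM, ratios of 2.62 (2.16 to 3.16) and 2.08 (1.42 to 2.99). Tnfrsf18 (chromosome 4, 156026164 to 156028895), which encodes the TNF receptor GITR and lies beside Tnfrsf4 (156013843 to 156016612), stood at 713 against 254 CPM and at 454 against 213 CPM, ratios of 2.80 (2.28 to 3.43) and 2.13 (1.44 to 3.07). Klrg1, an inhibitory receptor of differentiated Tregs and of effector CD8 T and NK cells, stood at 117 against 16.0 CPM and at 64.8 against 17.8 CPM. Its ratios were 7.30 (3.86 to 13.9) and 3.64 (1.04 to 10.5), the second from 5 UMIs. For all 4 genes the intervals left out 1 in both libraries. Under TMM scaling, which sets the bulk of genes equal between the classes, Icos and Tnfrsf18 were under 2 times in library 2, and 2 of the 4 (Ctla4 and Klrg1) kept the fold in both libraries.

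Of the 20 identity genes listed, all 20 are in the matrix and 8 had the 20 UMIs per library, over both classes, that a gene needed to be measured. Of those 8, 4 were at least 2 times higher in both libraries (Ctla4, Icos, Tnfrsf18 and Klrg1) and none was at least 2 times lower, with a median log2 ratio of 1.19. Over all 4958 genes measured, 51 (1.03%) were at least 2 times higher in both libraries and 90 (1.82%) at least 2 times lower, and the median was 0.01. The other measured members were Capg, an actin-capping protein, at 3.17 and 1.56 times, Tgfb1, the cytokine TGF-beta, at 1.39 and 1.17 times, Entpd1, the ectonucleotidase CD39, at 1.54 and 0.521 times, and Plagl1 at 0.702 and 1.49 times (0.645 in library 2 without the deepest barcode, which held 4 of its 6 UMIs). The intervals of Capg in library 2 and of Tgfb1, Entpd1 and Plagl1 in both libraries held 1.

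The 12 identity genes that were not measured were Izumo1r, Lrrc32, Ikzf4, Nrp1, Nt5e, Il10, Ebi3, Socs2, Swap70, Itgae, Tigit and Gpr83. Izumo1r, which encodes the Treg surface protein FR4, had 28 UMIs in Treg-marker barcodes and 14 in all others in library 1 (143 and 10.7 CPM), but 2 and 1 in library 2. Lrrc32, which encodes GARP, the docking receptor of latent TGF-beta, had 5 against 2 UMIs and 2 against 0. Ikzf4, the Helios relative Eos, had 7 against 12 and 5 against 9, or 35.7 against 9.17 CPM and 64.8 against 10.7 CPM. Il10, the suppressive cytokine, had 6 against 2 UMIs and 1 against 0. Nrp1, a receptor of thymus-derived Tregs, had 15 UMIs (76.4 CPM, against 31.3 CPM) in library 1 and 0 in library 2, and the inhibitory receptor Tigit had 1 and 0. Gpr83 had no UMI in either class.

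**Figure D2:**
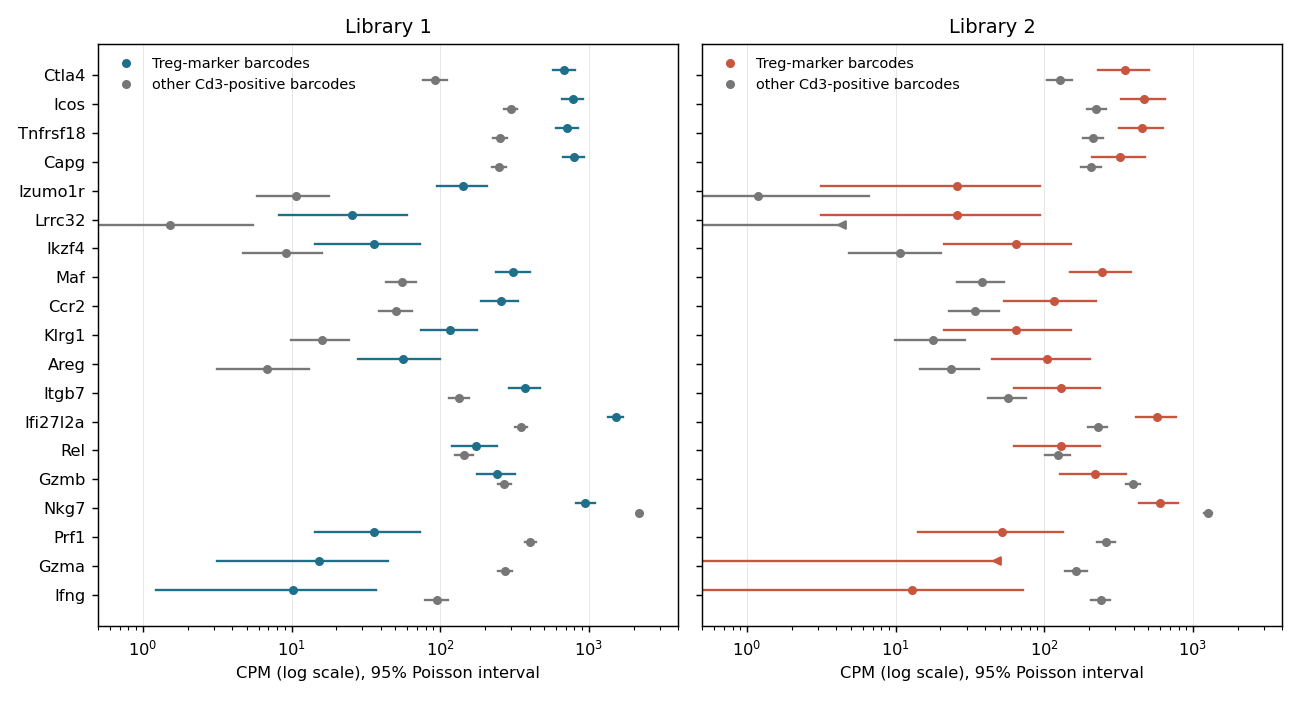
Level in CPM (horizontal axis, log scale) of 19 genes outside the rule (rows) in Treg-marker barcodes (coloured) and in all other Cd3-positive barcodes (grey), library 1 left and library 2 right. Points are summed levels, bars are 95% Poisson intervals, and a triangle marks the upper limit of a count of 0; Ctla4, Maf and Ccr2 lie to the right of the grey points in both panels, Prf1 and Ifng to the left, and the points of Rel overlap.

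Among genes tied to tumour-infiltrating and effector Tregs, Maf stood out in both libraries. Maf, the transcription factor c-MAF, was at 311 against 55.0 CPM and at 246 against 37.9 CPM, ratios of 5.65 (3.95 to 8.06) and 6.49 (3.48 to 11.8), with a UMI in 38 of 104 and 13 of 44 Treg-marker barcodes. Melanoma barcodes also held Maf, in 1.79% and 2.19% of them at 500 UMIs, against 17.3% and 15.9% of Treg-marker barcodes and 4.32% and 3.09% of the other Cd3-positive ones. Areg, the growth factor amphiregulin of tissue-repair Tregs, was at 56.0 against 6.88 CPM and at 104 against 23.7 CPM, 8.15 times (3.07 to 22.3) and 4.37 times (1.67 to 10.4). It had a UMI in only 6 and 3 Treg-marker barcodes, and 1 barcode held 6 of its 8 UMIs in library 2. Among barcodes with at least 1000 UMIs its log2 ratio over both libraries was 1.14, against 2.58 in all. Glrx, the redox enzyme glutaredoxin, was at 234 against 53.5 CPM and at 104 against 37.9 CPM, 4.38 and 2.73 times.

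Of the 17 measured genes of that list these 3 were at least 2 times higher in both libraries, beside 1.03% of all genes. Ccr8, Tnfrsf8, Irf4, Il1rl1 and Cd177 were the 5 listed genes with too few UMIs. None of the 17 was at least 2 times lower, and the median log2 ratio was 0.50, being 0.70 in library 1 and -0.05 in library 2. Tnfrsf9, the activation receptor 4-1BB, was at 1.98 (1.56 to 2.48) and 1.58 (0.963 to 2.48) times, and Batf, a transcription factor of effector Tregs, at 2.64 (1.41 to 4.72) and 1.26 (0.244 to 4.12) times. Gzmb, which encodes granzyme B and is found in some tumour Tregs, was at 239 against 270 CPM and 220 against 397 CPM. Ccr8, the chemokine receptor of many tumour Tregs, had 2 UMIs in Treg-marker barcodes and 3 in the others of library 1, and 1 and 1 in library 2. At this depth Ccr8 could not be used to tell the classes apart.

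Of 11 homing receptors measured, Ccr2 and Itgb7 were at least 2 times higher in both libraries, beside 1.03% of all genes. None was at least 2 times lower, and the median log2 ratio was -0.02. Ccr2, the receptor for the monocyte-attracting chemokine CCL2, was at 255 against 50.4 CPM and 117 against 34.4 CPM, 5.05 (3.43 to 7.41) and 3.39 (1.41 to 7.36) times. Itgb7, a chain of gut-homing integrins, was at 372 against 134 CPM and 130 against 56.9 CPM, 2.77 (2.08 to 3.65) and 2.28 (1.03 to 4.56) times, and under TMM scaling it no longer reached the fold in both. Ccr7, the lymph node homing receptor, was at 0.813 and 0.607 times with intervals that held 1.

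The 12 genes of highest ratio also held 6 that stand in no Treg or homing list. Ifi27l2a, an interferon-induced gene, was at 1513 against 349 CPM and 570 against 229 CPM, 4.33 (3.73 to 5.03) and 2.49 (1.75 to 3.47) times, with a UMI in 74 of 104 and 18 of 44 Treg-marker barcodes. Isg20, an interferon-induced exonuclease, was at 107 against 19.1 CPM and 90.7 against 36.8 CPM, with an interval of 0.917 to 5.71 in library 2. They were the 2 of 8 measured interferon-induced genes at least 2 times higher in both libraries, beside 1.03% of all genes. None of the 8 was at least 2 times lower, and the list median was 0.94. Without the deepest barcode Isg20 was at 1.83 times in library 2, and there, as under TMM scaling, Ifi27l2a alone of the 8 kept the fold in both libraries. Ifi47 and Gbp7, GTPases induced by interferon, were at 1.93 and 2.60, and at 1.74 and 2.51 times.

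Arl5a, a small GTPase, was at 153 against 32.1 CPM and 168 against 51.0 CPM, and Ass1, an enzyme of arginine synthesis, at 122 against 42.8 CPM and 117 against 22.5 CPM. Their ratios were 4.76 and 3.30, and 2.86 and 5.18, with intervals above 1 in both libraries. Tmem131, a membrane protein, was at 40.8 against 17.6 CPM and 104 against 22.5 CPM, from 8 UMIs each, and its interval in library 1 (0.897 to 5.37) held 1. Ighm, the heavy chain of IgM, was at 153 against 51.2 CPM and 90.7 against 23.7 CPM. Beside it, the 8 B cell markers summed to 352 CPM in Treg-marker barcodes of library 1 against 53.5 CPM in the others, from 8 barcodes, with Pax5 and Iglc2 at 0. In library 2 they summed to 13.0 against 9.48 CPM, from 1 barcode and 1 UMI, with the remaining 7 markers at 0. The part of these barcodes in the level of Ighm was not tested.

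Genes of cytotoxic T and NK cells were lower in Treg-marker barcodes. Of 14 measured cytotoxic genes 8 were at least 2 times lower in both libraries, beside 90 of 4958 (1.82%) over all genes. None was at least 2 times higher, and the median log2 ratio was -1.49. Without the deepest barcode of library 2 the lower ones numbered 6, with Nkg7, Fasl and Ctsw at 0.617, 0.526 and 0.526 times there and Klrd1 added. Under TMM scaling they numbered 10, where over all genes 154 were lower. Gzma, which encodes granzyme A, was at 15.3 against 274 CPM (library 1) and at 0 against 164 CPM (library 2). Its ratio was 0.0557 times (0.0114 to 0.164) in library 1, and with the 0 set at 3 counts it was 4.21 times lower in library 2. Prf1, the pore-forming protein perforin, was at 35.7 against 405 CPM and 51.8 against 261 CPM, 0.0881 (0.0352 to 0.183) and 0.199 (0.0537 to 0.516) times. Nkg7, a protein of cytotoxic granules, was at 948 against 2186 CPM and 596 against 1255 CPM, 0.433 (0.372 to 0.503) and 0.475 (0.345 to 0.638) times. Gzmf, another granzyme, was at 0 against 241 CPM, 15.7 times lower with the 0 set at 3 counts. In library 2 it was at 156 against 2220.5 CPM, 0.0700 times (0.0361 to 0.123), with 9 of its 12 UMIs there from 1 barcode.

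Gzmd, Gzme, Fasl and Ctsw made up the 8, and Gzmb, Gzmc, Gzmk, Cst7, Klrd1 and Klrk1 were the 6 measured ones that did not reach the fold in both libraries. Ifng, the cytokine interferon gamma, was at 10.2 against 94.7 CPM and 13.0 against 239 CPM, from 2 and 1 UMIs, 0.108 (0.0129 to 0.397) and 0.0541 (0.00136 to 0.305) times. Xcl1, a chemokine of CD8 T and NK cells, was at 50.9 against 126 CPM and 13.0 against 85.4 CPM, and Klrc1, which encodes the NK receptor NKG2A, at 15.3 against 124 CPM and 13.0 against 85.4 CPM. Since the rule leaves out every barcode with a Cd8 UMI and the comparison class holds 360 and 255 of them, a lower level of CD8 T cell genes follows in part from the choice.

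The remaining genes of the 12 lowest had few UMIs in Treg-marker barcodes. Il1b, the cytokine interleukin 1 beta, was at 40.8 against 150 CPM and 13.0 against 129 CPM. Nrgn, the calmodulin-binding protein neurogranin, was at 20.4 against 133 CPM and 13.0 against 102 CPM, and Sparc, a matrix protein, at 5.09 against 38.2 CPM and 38.9 against 207 CPM (16.8 CPM in library 2 without the deepest barcode). Car6, Gpd2 and Nifk had 1 UMI each in library 1 and 4, 1 and 2 in library 2. Beside Il1b, 7 neutrophil markers summed to 15.3 against 222 CPM and 168 against 737 CPM, and 11 monocyte and macrophage markers to 239 against 371 CPM and 194 against 302 CPM. With barcodes that held at least 3 UMIs of other lineages left out of both classes, the log2 ratio of Il1b turned to 0.35, and the number of genes at least 2 times lower went from 90 to 45. At their own depth, the counting intervals of Il1b, Nrgn, Sparc and Car6 lay below 1 in both libraries, and those of Gpd2 and Nifk did not. Thinned to equal depth, Gpd2, Nifk, Sparc, Car6 and Nrgn turned in sign as well. A count of 0 is set to 3 in a ratio, so with so few UMIs a turn can come from that setting alone. The cause of the turns was not tested, and they are not read as an opposite direction. From so few UMIs the direction under thinning is not a firm one.

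**Figure D3:**
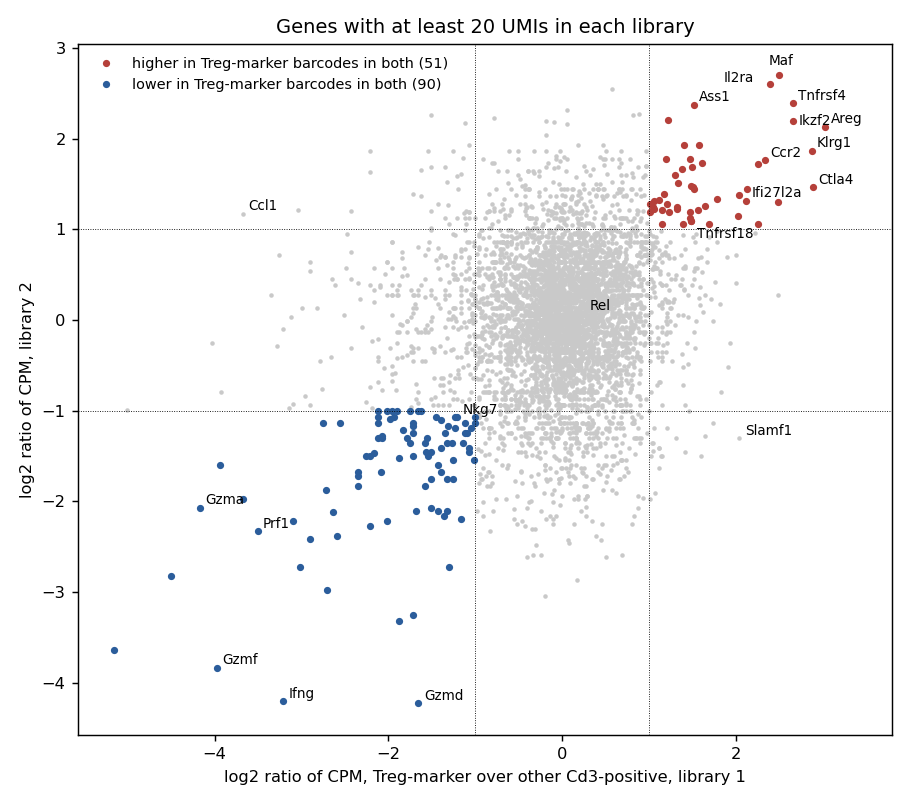
Log2 ratio of CPM in Treg-marker barcodes over all other Cd3-positive barcodes, library 1 (horizontal) against library 2 (vertical), for the 4958 genes measured. Grey points are genes that are not at least 2 times apart in both libraries, dotted lines mark 2 times, red points are the 51 higher and blue points the 90 lower genes, with Maf, Areg and Ctla4 at the upper right and Gzmf, Ifng and Gzma at the lower left.

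A ratio of 2 in both libraries is a fold threshold and not a test, and many genes pass it on few UMIs. Of the 51 higher genes, 27 had intervals above 1 in both libraries, and 24 of these are no genes of the rule. They include Ly6a, which encodes the surface protein Sca-1 (2150 against 531 CPM and 894 against 404 CPM), Gadd45b, a stress-induced gene (275 against 122 CPM and 350 against 134 CPM), Cd83, an activation marker (107 against 35.1 CPM and 90.7 against 27.3 CPM), and Bcl2l1, which encodes the survival protein BCL-XL (66.2 against 30.6 CPM and 104 against 41.5 CPM). Those 4 were chosen after their values were seen. Of the 90 lower genes, 24 had intervals below 1 in both libraries, 22 of them outside the rule. With total UMIs the median log2 ratio of the 4958 genes was already near 0, at 0.01 in library 1 and 0.06 in library 2. Scaling by TMM factors instead shifted all log2 ratios by -0.15 and -0.31, which moved these medians below 0. It changed the split to 28 higher and 154 lower. Higher genes were thus 36.2% of the genes past the fold with total UMIs and 15.4% with TMM.

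Rel itself, the gene deleted in myeloid cells of 1 of the groups, differed little between the classes. It stood at 173 against 145 CPM (library 1) and 130 against 123 CPM (library 2), ratios of 1.19 (0.803 to 1.73) and 1.05 (0.490 to 2.01), and its direction turned under 6 alternatives. It had a UMI in 24 of 104 and 8 of 44 Treg-marker barcodes. Of 18 measured NF-kB pathway genes, Nfkbid and Bcl2l1 were at least 2 times higher in both libraries, beside 1.03% of all genes. None was at least 2 times lower, and the list median was 0.48. Under TMM scaling neither Nfkbid nor Bcl2l1 kept the fold in both libraries. Nfkbid, which encodes the nuclear I-kappa-B protein that works with c-Rel at Foxp3, was at 76.4 against 30.6 CPM and 77.8 against 33.2 CPM, 2.50 (1.28 to 4.63) and 2.34 (0.793 to 5.77) times. The deepest barcode held 3 of its 6 UMIs in library 2, and without it Nfkbid was at 1.52 times and no longer reached the fold, while Traf1, Traf3 and Bcl2l1 did. Traf1, a signalling adaptor of TNF receptors, was at 2.21 (1.71 to 2.82) and 1.97 (1.19 to 3.12) times, and Nfkb1, which encodes the p50 subunit, at 1.85 (1.24 to 2.69) and 1.44 (0.554 to 3.19) times. Rela, Relb, Nfkb2, Nfkbib, Nfkbiz and Ikbkb had intervals that held 1 in both libraries.

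Il2ra, one of the genes of the rule, stood at 153 against 29.0 CPM and 130 against 21.3 CPM. Of 10 measured genes of the IL-2 and STAT5 pathway none was at least 2 times apart in both libraries, and the median log2 ratio was 0.01, or -0.22 under TMM scaling, where Bcl2l11, which encodes the death protein BIM, was lower. Il2rb and Il2rg, the receptor's other chains, were at 1.14 and 0.830, and at 1.23 and 1.41 times, and Il2rb was at 1.08 times in library 2 without the deepest barcode. Cish, a STAT5 target that limits cytokine signals, was at 3.38 (2.17 to 5.19) times in library 1 and 1.34 (0.469 to 3.13) in library 2. Il2 itself had no UMI in Treg-marker barcodes, and 3 and 1 in the others.

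For the other lists the counts were as follows, beside 1.03% higher and 1.82% lower over all genes. Of 7 measured inhibitory receptors Ctla4 alone was at least 2 times higher in both libraries, and the exhaustion receptors Pdcd1 and Lag3 stood at 0.747 and 1.28 times and at 0.909 and 0.804 times, with Lag3 at 1.04 in library 2 without the deepest barcode. Of 9 measured TNF receptor and costimulation genes Tnfrsf18 and Icos reached the fold in both libraries, with a median of 0.70, and under TMM scaling none did. Of 13 T helper transcription factors Maf alone was so, and Gata3, the factor of type 2 helper cells, was at 2.44 (1.25 to 4.50) and 1.17 (0.228 to 3.79) times. None of 15 T cell receptor response genes, 9 naive and memory genes, 16 cell cycle genes, 13 glycolysis and lipid genes or 16 dissociation stress genes was at least 2 times apart in both libraries. Without the deepest barcode, 3 stress genes (Fos, Atf3 and Ier3) and the lipid gene Scd2 were lower, and under TMM scaling Atf3. Their medians were -0.10, -0.08, 0.05, 0.07 and -0.03, against 0.01 for all genes, and those of the cell cycle and glycolysis lists turned negative under TMM scaling (-0.18 and -0.16). For the receptor response list the sign differs from the medians within each library, which were 0.09 and 0.21. Of 7 measured cytokines and chemokines Ifng and Xcl1 were lower, without the deepest barcode and under TMM scaling Ccl3 and Ccl4 as well. Ltb, a lymphotoxin chain, was at 2.22 times in library 2 without that barcode and then reached the fold in both libraries. Il4, Il5, Il17a, Il17f and Il22 had no UMI in either class. All lists together held 254 genes, of which 253 are in the matrix and 182 were measured. They were chosen with earlier results of these data known, so their counts describe the barcodes and are no independent evidence.

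**Figure D4:**
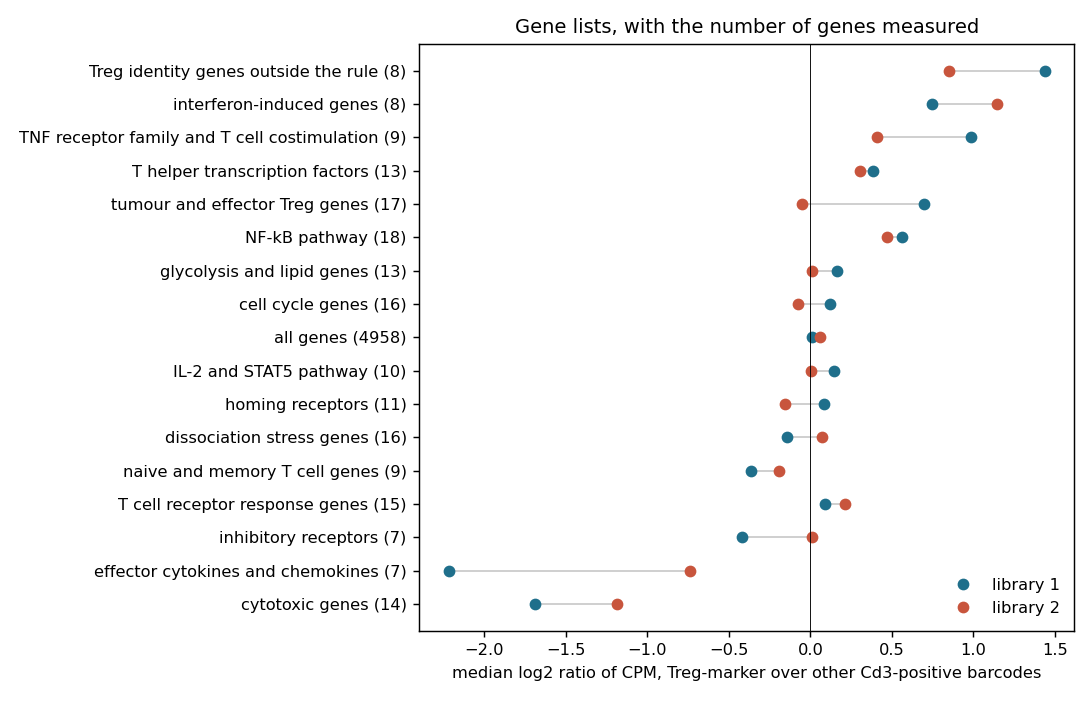
Median log2 ratio of CPM in Treg-marker barcodes over all other Cd3-positive barcodes (horizontal axis) for each gene list (rows, with the number of genes measured), in library 1 and library 2. Rows are ordered by the median over both libraries; identity genes stand at 1.44 and 0.85 and cytotoxic genes at -1.69 and -1.19.

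Against Cd8-negative barcodes alone (295 and 154), the nearest class by the rule, the picture changed for some genes. Cd4 had a UMI in only 17 of 655 and 3 of 409 of all other Cd3-positive barcodes. These Cd8-negative ones are thus not shown to be mainly conventional CD4 T cells. Of 2478 genes measured there, 47 (1.90%) were at least 2 times higher in both libraries and 48 (1.94%) lower. Ctla4 was at 7.42 (5.02 to 11.3) and 6.09 (3.23 to 11.7) times, so its ratios in the libraries lay closer together than against all other Cd3-positive barcodes. Tnfrsf18 was at 3.82 and 5.26 times, Maf at 2.30 and 3.21 times, Ccr2 at 2.33 and 3.04 times, Ifi27l2a at 2.88 and 3.31 times, and Tnfrsf9 at 9.75 (5.86 to 17.1) and 3.57 (1.92 to 6.60) times. Icos, at 1.76 and 2.32 times, no longer reached the fold in library 1. Nkg7, at 0.891 (0.743 to 1.07) and 0.962 (0.682 to 1.33), and Prf1 had intervals that held 1 in both libraries. Gzma was lower at 0.0355 times in library 1 and, with its 0 set at 3 counts, 3.29 times lower in library 2.

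Cell cycle genes were higher than in these Cd8-negative barcodes. Of 8 measured ones 4 were at least 2 times higher in both libraries, beside 1.90% of all genes there. Their median log2 ratio was 1.28, beside 0.04 for all genes. Against the Cd8-positive barcodes none of 16 was called, and the median was -0.21. The Cd8-negative class needs no Cd8 UMI and at most 1 marker UMI, which shallow barcodes meet more easily. The part of depth in these ratios was not tested. Stmn1, a tubulin regulator of dividing cells, was at 4.45 (3.25 to 6.16) and 2.98 (2.00 to 4.41) times, Top2a, the DNA topoisomerase, at 2.54 (1.81 to 3.59) and 2.45 (1.45 to 4.09) times, and Tyms and Mcm6, of DNA synthesis, made up the 4. Of 4 measured naive and memory genes Klf2 and Foxp1, which hold T cells in a quiescent state, were lower, Klf2 at 0.239 (0.155 to 0.355) and 0.203 (0.0238 to 0.783) times. Bcl2, a survival gene of resting T cells, was at 0.280 and 0.162 times. Of 14 measured dissociation stress genes 4 (Fos, Jun, Atf3 and Hspa1a) were also lower, with a median of -0.43, and their part in these differences was not tested. Over all genes measured against the Cd8-negative barcodes, 1.94% were lower. At least 2 UMIs of 9 cycle genes were found in 22 of 104 and 8 of 44 Treg-marker barcodes, and in 104 of 655 and 102 of 409 of all other Cd3-positive ones, at unequal depth.

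Against Cd8-positive barcodes (360 and 255), 50 of 3755 genes (1.33%) were at least 2 times higher in both libraries and 69 (1.84%) lower. Maf was at 11.9 (7.39 to 19.9) and 16.3 (6.82 to 43.1) times there, and Ctla4 at 7.37 and 2.09 times. Il7r, the interleukin 7 receptor, was at 3.34 (2.61 to 4.28) and 3.07 (1.74 to 5.24) times, where against the Cd8-negative ones it was at 0.719 (0.572 to 0.899) and 1.64 (0.938 to 2.77) times. Ifng, Ccl3, Ccl4 and Xcl1 were all at least 2 times lower.

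The Treg-marker barcodes were not alike among themselves. In the 83 with at least 4 marker UMIs, Ctla4 stood at 805 CPM in library 1 (interval 672 to 957) and 569 CPM in library 2 (319 to 939). It was at 200 (73.3 to 435) and 270 (129 to 496) CPM in those with 2 marker UMIs, at 168 and 73.2 CPM just outside the rule with 1 marker UMI, and at 78.2 and 54.1 CPM in Cd8-negative barcodes with none. The 4 and 12 barcodes with 3 marker UMIs held 0 and 2 UMIs of Ctla4. Ctla4 thus lay highest where most marker UMIs were found, and the intervals of the barcodes with 2 and with 1 marker UMI overlapped in both libraries. The barcodes with at least 4 marker UMIs were also deeper, with medians of 1791 and 1361.5 UMIs against 914 and 913 in those with 2, and the part of depth in the difference was not tested.

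Among barcodes with at least 4 marker UMIs, the counting intervals of Ctla4, Icos and Izumo1r with and without a Foxp3 UMI overlapped in each library. In the 37 and 5 barcodes with Foxp3, Ctla4 was at 754 and 619 CPM, and in the 32 and 9 without it at 877 and 541 CPM. Icos stood at 721 against 862 CPM and 1032 against 420 CPM, and Ly6a at 2218 against 2587 CPM and 2270 against 1081 CPM, with and without Foxp3. Izumo1r was at 162 against 166 CPM in library 1 and had no UMI in either group of library 2. Ccr2 was at 345 (236 to 486) against 197 (105 to 336) CPM in library 1. Nkg7, at 721 (559 to 916) against 1301 (1041 to 1607) CPM, and Ccl5, at 452 (326 to 611) against 877 (666 to 1134) CPM, were lower with Foxp3 in library 1 by more than these intervals. In library 2 the intervals of Nkg7 overlapped (206 against 661 CPM) and those of Ccl5 did not (310 against 1562 CPM), from 5 and 9 barcodes. A Foxp3 UMI is missed often at this depth, and barcodes without one are not shown to lack the gene.

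Barcodes chosen on a sole marker differed from each other. Those with Tnfrsf4 alone (23 and 14) had Cd4 at 216 and 240 CPM, Icos at 1007 and 660 CPM, Ly6a at 2230 and 1379 CPM, and Il7r at 1259 and 360 CPM, with Ctla4 at 216 and 180 CPM, and they had no UMI of Fcer1g. OX40 is also carried by activated conventional CD4 T cells, and these values do not tell the populations apart. Those with Ikzf2 alone (12 and 5) had no UMI of Cd4, Ccr2, Izumo1r or Klrg1, and Ly6a at 160 and 0 CPM. In library 1 they had Fcer1g, a signalling chain of innate-like lymphocytes and NK cells, at 1357 CPM (790 to 2172). Ccl5, a chemokine of cytotoxic cells, was at 8857 CPM there. Trdc, the constant chain of the gamma delta receptor, had 4 UMIs (319 CPM), but in only 2 barcodes, of which 1 held 3. The barcodes with at least 4 marker UMIs had Fcer1g at 44.0 CPM, Ccl5 at 629 CPM and no UMI of Trdc. In library 2 the 5 barcodes include the deepest one, which holds 17736 of their 20568 UMIs, so their levels are mostly its own. For the 17 barcodes with Ikzf2 alone, the label of a regulatory T cell thus rests on Ikzf2, and Fcer1g and Ccl5 in library 1 go against it.

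Cd8-positive barcodes with at least 2 marker UMIs, which the rule leaves out, were unlike the Treg-marker barcodes. They had Ctla4 at 99.2 and 149 CPM, Icos at 133 and 149 CPM, Maf at 21.2 and 3.92 CPM, Il7r at 47.8 and 54.8 CPM and no UMI of Cd4, with Nkg7 at 2401 and 1520 CPM.

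**Figure D5:**
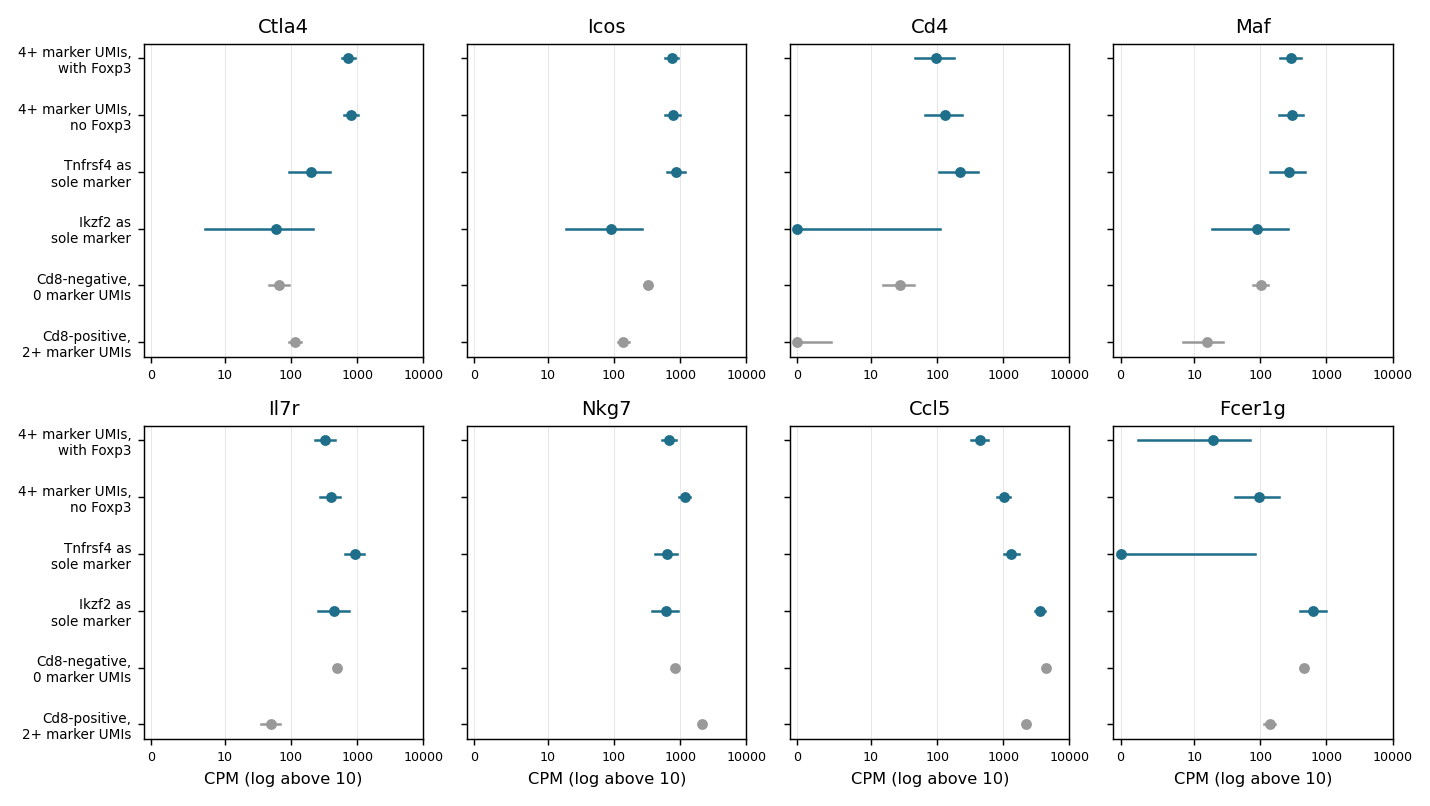
CPM (horizontal axis, linear to 10 and log above) of 8 genes (panels) in 4 groups of Treg-marker barcodes (blue) and 2 groups outside the rule (grey), summed over both libraries. Points are levels and bars 95% Poisson intervals, a barcode can be in more than 1 of the groups, and 0 marks no UMI. Ctla4 is at 741 and 810 CPM in the 2 upper groups and at 60.4 CPM in barcodes with Ikzf2 as sole marker. That last group holds the deepest barcode of library 2, with 17736 UMIs and none of Ctla4, which lowers its summed level.

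The libraries were then set side by side within the Treg-marker barcodes. Foxp3, which helped choose them, stood at 117 CPM in library 2 and 311 CPM in library 1. Of 2066 genes with at least 20 UMIs over both libraries, 113 (5.47%) were at least 2 times higher in library 2 and 239 (11.6%) lower. Among the other Cd3-positive barcodes these shares were 6.79% and 5.11% of 7567 genes. Of 2064 genes measured in both classes, 113 were higher in library 2 in Treg-marker barcodes and 58 in the others, and 29 in both, which is 25.7% of the first and 50% of the second. For lower genes the numbers were 237, 48 and 18, or 7.59% and 37.5%.

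Among genes of the lists, Izumo1r was at 25.9 against 143 CPM (0.182 times, 0.0210 to 0.721), Capg at 324 against 795 CPM (0.408 times, 0.256 to 0.624), and Ifi27l2a at 570 against 1513 CPM (0.377 times, 0.268 to 0.519). Ctla4, Icos and Tnfrsf18 were at 0.513, 0.599 and 0.636 times, with intervals below 1, and without the deepest barcode at 0.666, 0.777 and 0.826 times. Cd4 was at 1.27 times (0.532 to 2.85). In the other Cd3-positive barcodes Ctla4 was at 1.37 times (1.05 to 1.79) and Icos at 0.752 times. Of 5 naive and memory genes measured here 3 were at least 2 times lower in library 2, beside 11.6% of all genes, and of 14 measured in the other barcodes 8 were, beside 5.11%. Klf2 was at 0.182 times in Treg-marker barcodes and 0.282 in the others, Il7r at 0.477 (0.619 without the deepest barcode) and 0.349, and Satb1 at 0.937 and 0.351. The larger share of barcodes with 2 or 3 marker UMIs in library 2 (30 of 44, against 35 of 104) stands beside the lower level of Ctla4, and its part in it was not tested.

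For each of the 6 genes highest in library 2 over library 1, 1 barcode held most of the UMIs of library 2. Mt2 and Ptgds nevertheless had a UMI in 11 and 6 of the 44 barcodes there. Gzmc, a granzyme, went from 1 UMI (5.09 CPM) to 40 (518 CPM) and Ccl1, a chemokine for CCR8, from 1 UMI to 22 (285 CPM), but in library 2 both came from 3 barcodes, of which 1 held 55.0% and 72.7% of the UMIs. In the other Cd3-positive barcodes all 6 genes were also higher in library 2, Gzmc at 1034 against 164 CPM, and Ccl1, Selenbp1, Mt2, Scd2 and Ptgds at 1.95, 10.2, 6.47, 3.58 and 3.64 times. Selenbp1, Mt2, Scd2 and Ptgds stood at 285, 1050, 492 and 233 CPM, and without the deepest barcode at 0, 219, 50.5 and 84.1 CPM. Without it, the genes at least 2 times higher in library 2 numbered 56 and not 113, and the lower ones 213 and not 239. Ccl5 was at 3227 against 1223 CPM, 2.64 times (2.20 to 3.16), where in the other barcodes it was at 0.674 times; 1 barcode that is not the deepest held 43.8% of its UMIs in library 2.

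The 6 lowest in library 2 were Gimap9, H2afx, Igkc, Atp2b4, Def6 and Bcl2. Igkc, the kappa light chain, went from 115 UMIs (586 CPM) to 5, with 93 of the 115 in 1 barcode of library 1. Gimap9, a GTPase of lymphocyte survival, had 36 UMIs in library 1 and 1 in library 2, and H2afx, a histone gene of dividing cells, 30 and 1. Both were less far apart in the other Cd3-positive barcodes, at 0.559 and 0.737 times.

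Markers of other cell types were read in all Treg-marker barcodes. At least 3 UMIs of B cell, monocyte and macrophage, neutrophil or dendritic markers were found in 10 of 104 and 7 of 44, against 53 of 655 and 49 of 409 in the other Cd3-positive ones. Gamma delta T cell markers had 6 UMIs in 3 barcodes of library 1 and none in library 2, and NK markers had 42 and 33 UMIs in 14 and 12 barcodes, with Ncr1 and Klra8 at 0 in both. The melanoma genes Pmel, Mlana, Dct and Tyrp1 took 0.0295% and 0.0946% of UMIs, against 0.0369% and 0.123% in the others. No doublet caller was applied, and without the barcodes of other lineages the shares of Treg-marker barcodes were 13.5% and 9.32%.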

How the data were processed

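Droplet RNA-seq of sorted CD45+ tumour cells gave 1 deposited matrix of UMI counts, 31053 genes by 18252 barcodes, with deposited lists of barcodes and genes (other files, with no measured unit). The authors made it with Cell Ranger on mm10, per the submitters' processing notes, and the version 3.0.2 is per the file headers. Aligner settings and annotation are not given in the sources used here. The count values were used as deposited, with no further normalization by the authors seen in them.

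Barcodes were chosen by the rule in the first paragraph. UMIs were summed per library and class and divided by the total UMIs of that class (CPM). A gene was measured with at least 20 UMIs in each library over both classes (for the comparison of libraries, 20 over both libraries) and called higher or lower at 2 times or more in both libraries. Counts of 0 in a ratio were set to 3. Poisson intervals of levels, Clopper-Pearson intervals of shares and conditional binomial intervals of ratios are exact, at 95%, and cover counting error only. With 1 library per genotype no test across samples exists. The text names the 12 highest and 12 lowest genes outside the rule, the 6 highest and 6 lowest between libraries, genes of the lists, and Rel, and says where others were added. The 35 symbols that name several genes were left out of the measured genes as well as of naming, whatever their UMIs. Aldoa was left out in this way. Naming also left out mitochondrial genes and variable genes of the antigen receptors. No doublet caller was run and no doublet removed, and an alternative leaves out barcodes with at least 3 UMIs of other lineages. The members and lists were chosen with earlier results of these data known. The steps were tested on simulated data. Gene positions are from the GENCODE annotation of GRCm38. Tools were Python 3.11.15, numpy 2.4.6, scipy 1.17.1, pandas 2.3.3 and matplotlib 3.10.9.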

Additional observations from a re-analysis of the deposited data

Results flagged for a closer look

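The ratio of Treg-marker over other Cd3-positive barcodes is given here for 2 genes. In 1 library each was at least 2 times higher, and in the other at least 2 times lower. The difference was not tested, and they are not the only genes that pointed opposite ways. Slamf1, which encodes the T cell costimulatory receptor SLAM, was at 4.10 times in library 1, from 16 UMIs in 13 Treg-marker barcodes, and at 0.405 times in library 2, from 1 UMI. Ccl1, a chemokine for CCR8, was at 0.0785 times in library 1, from 1 UMI, and at 2.25 times in library 2, where 1 barcode held 16 of its 22 UMIs. Genes with more UMIs turned by less. S100a6 was higher in Treg-marker barcodes of library 1 (2145 CPM, others 1468) and lower in those of library 2 (1322 CPM, others 2036). S100a4 turned likewise (1075 CPM, others 663, then 674 CPM, others 863). Without the deepest barcode their ratios in library 2 were 0.818 and 1.01.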

How the results depend on the processing

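Genes at least 2 times higher and lower in Treg-marker barcodes, 51 and 90, numbered 206 and 158 with no melanoma limit, 33 and 59 with at least 1 marker UMI, 327 and 16 with Foxp3 required, 18 and 15 when thinned to 1000 UMIs, 119 and 158 as means over barcodes, 28 and 154 with TMM, 14 and 35 at 50 UMIs per gene, 428 and 630 in library 1 alone and 401 and 567 in library 2 alone. Higher genes were 105 with at least 3 marker UMIs, 194 at 10 UMIs per gene and 796 at 1. A count of 0 is set to 3 UMIs, which alone can reach 2 times where the class is small or the UMI limit low. With Foxp3 required, library 2 held 7 Treg-marker barcodes. The 327 and the 796 higher genes can thus include genes without a UMI in them, and how many was not counted. Lower genes were 45 without barcodes of other lineages, 48 against Cd8-negative barcodes and 36 when thinned to 500 UMIs. Shares of Cd3-positive barcodes in libraries 1 and 2 were 9.62% and 5.74% with at least 3 marker UMIs, 20.4% and 16.1% with 1, and 5.14% and 1.55% with Foxp3. Between libraries, higher genes were 57 with melanoma genes under 0.2%, and higher and lower ones 51 and 112 with Foxp3 and 19 and 50 at 50 UMIs per gene. Leaving out the deepest barcode, chosen after seeing the data, gave 56 higher. The log2 ratio of Rel turned to -0.0649 at 5% mitochondrial UMIs, -0.0613 with at least 3 marker UMIs, -0.109 with 1, -0.560 with Foxp3, -0.0802 against Cd8-positive barcodes and -0.0684 with TMM. Gpd2 turned to 0.70 with Foxp3 and 1.17 at 500 UMIs, Il1b to 0.35 without other lineages and 0.48 at 1000 UMIs, and Nrgn to 0.0198 against Cd8-negative barcodes and 0.21 at 500 UMIs. Thinned to 1000 and 500 UMIs, Nifk turned to 0.81 and 0.77, Sparc to 2.00 and 0.74 and Car6 to 0.52 and 0.68. Counts of 0 are set to 3 in these ratios, so a turn in a gene with few UMIs can come from that setting alone. The cause of the turns was not tested. Of 525 values of 25 named genes under 21 alternatives, 446 moved by less than their counting error, 61 moved further and 18 turned in sign. No paired analysis was possible because each genotype has 1 library and the barcode numbers name no sample.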
